A study of Bos indicus x Bos taurus with 45 samples.

Results

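The miRNAs described here are those known from white blood cells: any arm of the precursors mir-223, mir-142, mir-150, mir-155, mir-146a, mir-146b and mir-342, found by name in 4 tables of small RNA sequencing counts. The tables name them bta-miR-223, bta-miR-142-5p, bta-miR-142-3p, bta-miR-150, bta-miR-155, bta-miR-146a, bta-miR-146b, bta-miR-342 and bta-miR-342-5p, and the species prefix bta (Bos taurus) is left out below. These 7 precursors gave 9 listed miRNAs of 603 names in all. The liver table listed all 9 among 563 miRNAs, and the other tables listed 8 each, among 436 in kidney, 439 in skeletal muscle and 460 in tongue. An ending of 5p or 3p names the arm of the hairpin precursor that a mature miRNA is cut from, where the table gives one.

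The tissues came from Bos indicus x Bos taurus fetuses at about day 105 of gestation. Control fetuses were conceived by artificial insemination. LOS fetuses were conceived by assisted reproductive technologies (ART) and had large offspring syndrome, an overgrowth condition of cattle and sheep. The group called ART had the same kind of conception and a healthy phenotype, and only liver was sequenced from it. Kidney and skeletal muscle had 4 control and 4 LOS libraries each, liver had 5 control, 4 ART and 4 LOS libraries, and tongue had 9 control libraries (5 female, 4 male) and 7 LOS libraries (4 female, 3 male). Sex was labelled for tongue alone. The dam, the sire and the day of processing were not given in the labels, so p-values within a tissue measure the spread between fetuses as labelled.

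A miRNA is a short RNA that, loaded into an Argonaute protein, binds messenger RNAs through its seed near the 5′ end and lowers their translation and stability. miR-142 is made throughout the blood-forming lineages, miR-223 is best known from granulocytes and their precursors, and miR-150 is abundant in mature lymphocytes. miR-155 is induced when lymphocytes and macrophages are activated, and miR-146a and miR-146b, which share a seed, are induced by NF-κB and lower the adaptor proteins TRAF6 and IRAK1. miR-342 lies within the EVL gene and is found in blood cells and in other tissues. In a bovine fetus of this age the liver is a blood-forming organ, and the other tissues receive blood cells through their vessels.

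The listed total per library ranged from 6132982 to 9170756 reads for kidney, from 3379816 to 4976770 for liver, from 4744968 to 6456252 for skeletal muscle and from 9357833 to 13822348 for tongue. Levels are given as counts per 1000000 listed reads (CPM). A miRNA read spans the whole molecule, so levels need no scaling by length, but different miRNAs are captured with unequal efficiency during library preparation. Markers of liver, muscle and tongue followed the labels. The hepatocyte miRNA miR-122 reached 18694 ± 758 CPM (SD, n = 5) in control liver and 10.5 ± 8.73 CPM (SD, n = 4) in control kidney, miR-206 of skeletal muscle was listed in muscle and tongue alone, and miR-205 of squamous epithelium reached 2855 ± 485 CPM (SD, n = 9) in control tongue. The kidney and gut epithelium miRNAs miR-192, miR-194 and miR-215 did not single out kidney. Their summed CPM was 22818 ± 1055 (SD, n = 4) in control kidney and 70982 ± 4795 (SD, n = 5) in control liver. It ran from 1103 to 1457 in control muscle and from 1640 to 8136 in control tongue. No pair of libraries of a group was close to being a duplicate.

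The first comparison was between tissues, in control fetuses. The summed CPM of the listed members was 6202 to 7207 over all 13 liver libraries, 910 to 1118 in kidney, 679 to 981 in muscle and 929 to 1445 in tongue, so the liver range did not overlap any other. Most of this sum was miR-142-5p in liver and miR-342 in the other tissues. In bulk tissue such as this, fewer cells of a type and less RNA per cell cannot be told apart. Each tissue has a table of its own, so the tissue and the handling of its libraries cannot be told apart either.

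miR-142-5p, the more abundant arm of mir-142, stood at 4338, 4544, 4541, 4134 and 4601 CPM in the 5 control livers. It stood at 82.4, 89.3, 91.0 and 83.3 CPM in control kidney and at 67.7, 100, 101 and 77.1 CPM in control muscle. The 9 control tongues ran from 89.6 to 216 CPM with a median of 156. Every control liver was above every control library of the other tissues, and the lowest tongue value lay inside the kidney and muscle ranges. By mean CPM in controls miR-142-5p was number 37 of 563 listed miRNAs in liver, against 197 of 436 in kidney, 216 of 439 in muscle and 198 of 460 in tongue. The other arm, miR-142-3p, had the same order of means, with 572 ± 17.3 CPM (SD, n = 5) in control liver, 13.8 ± 3.15 (SD, n = 9) in tongue, 8.61 ± 1.43 (SD, n = 4) in kidney and 7.86 ± 0.85 (SD, n = 4) in muscle.

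The tissue pairs were tested with edgeR's quasi-likelihood test after TMM scaling, which assumes that most miRNAs are unchanged. Benjamini-Hochberg adjustment was over all miRNAs that a pair of tables shares. These fits had no term for the fetus and took the libraries of both tissues as independent. A miRNA is called at an adjusted p under 0.05. Most miRNAs differed between tissues: 87.8% were called between kidney and liver, 74.4% between kidney and muscle, 81.6% between kidney and tongue, 85.5% between liver and muscle, 87.2% between liver and tongue, and 65.9% between muscle and tongue. Against these shares, the members called were 7 of 8, 4 of 8, 4 of 8, 6 of 8, 7 of 8 and 5 of 8 in the same order, so the number of calls does not set the members apart. Between muscle and tongue the 5 calls became 3 with the fetus number as a block, since miR-142-3p (-0.45, SE 0.18) and miR-155 (0.32, SE 0.12) were lost. There were also 3 calls without muscle control 1 or without muscle control 4. By CPM, without scaling factors, every kidney control was below every liver control for 5 members (62.8% of all miRNAs) and above for 1 (22.3%). Kidney was wholly above muscle for 3 members (28.9%), and above tongue for 1 (17.9%) and below it for 1 (47.8%). Liver was wholly above muscle for 5 members (57.8%) and above tongue for 6 (51.5%), and muscle was wholly below tongue for 4 (42.3%). Among the members, the arms of mir-142 had the largest differences between liver and each other tissue. miR-142-5p was higher in liver by 4.66 log2 units than in kidney (SE 0.08), by 4.88 than in muscle (SE 0.12) and by 4.20 than in tongue (SE 0.15). For miR-142-3p the liver was higher by 5.04, 5.37 and 4.65 log2 units against kidney, muscle and tongue. The median over the members was a log2 difference of -0.85 for kidney minus liver, 1.48 for liver minus muscle and 0.61 for liver minus tongue, beside -0.07, 0.03 and -0.20 over all miRNAs tested.

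TMM assumes that most miRNAs are unchanged, while most were called between these tissues, so the scale matters for the smaller tissue differences. The TMM factors ran from 0.645 to 0.740 in kidney and from 1.35 to 1.38 in liver when these tables were fitted together. Without the factors the median of all miRNAs moved to -1.09 for kidney minus liver, -0.50 for kidney minus tongue, 0.84 for liver minus muscle, 0.52 for liver minus tongue and -0.35 for muscle minus tongue. Among all miRNAs, the calls between kidney and liver split into 182 higher and 184 lower in kidney with TMM, and into 99 higher and 275 lower without factors. The split was 169 and 159 with TMM against 97 and 229 without for kidney and tongue, and 184 and 171 against 255 and 114 for liver and muscle. It was 167 and 209 against 244 and 129 for liver and tongue, and 135 and 138 against 82 and 229 for muscle and tongue. miR-142-5p, miR-142-3p, miR-150 and miR-146a were called higher in liver than in each other tissue with TMM, with RLE factors, without factors and in every other setting tried for these pairs. The direction between liver and the other tissues depended on the scale for miR-155 and miR-342-5p, for miR-342 against kidney and tongue, and for miR-146b against muscle.

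**Figure D1:**
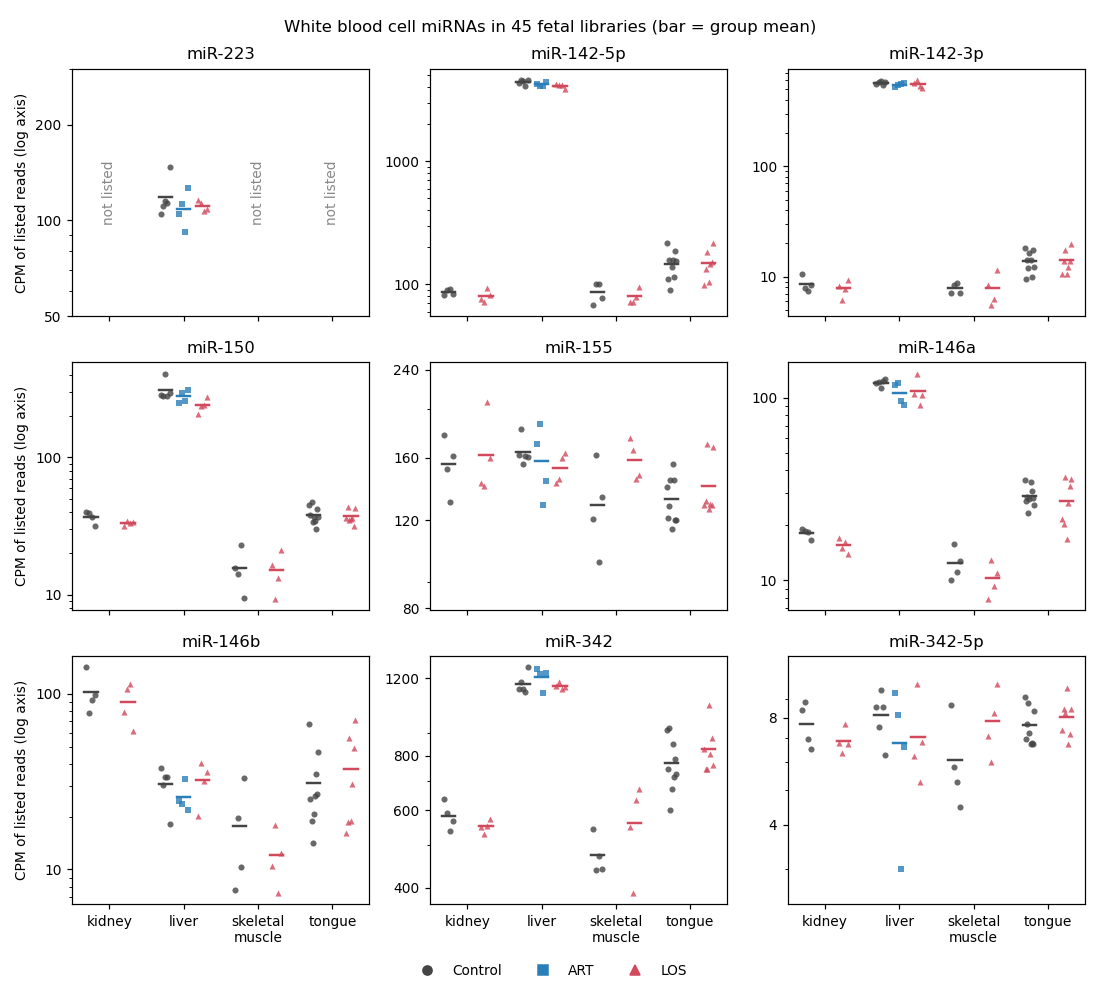
CPM of listed reads (log axis, with its own range in each panel) of the 9 white blood cell miRNAs in each library, by tissue, with black circles for control, blue squares for ART and red triangles for LOS, and bars at group means. The liver libraries stand above the other tissues for miR-142-5p, miR-142-3p, miR-150 and miR-146a, the kidney group means stand highest for miR-146b, and miR-155 overlaps across the 4 tissues.

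miR-223, the myeloid member, was listed for liver alone. It stood at 105, 111, 115, 113 and 148 CPM in the control livers, at 105, 112, 91.9 and 126 CPM in the ART livers and at 116, 114, 107 and 109 CPM in the LOS livers. The 3 groups overlapped. Its control mean of 118 ± 16.8 CPM (SD, n = 5) made it number 240 of 563 in the liver. The lowest mean CPM of any listed miRNA was 4.23 in kidney, 3.53 in muscle and 3.14 in tongue, and no level of miR-223 is given for these tissues.

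miR-150, the lymphocyte miRNA, was 308 ± 55.9 CPM (SD, n = 5) in control liver, 38.2 ± 5.52 (SD, n = 9) in tongue, 36.9 ± 3.63 (SD, n = 4) in kidney and 15.5 ± 5.54 (SD, n = 4) in muscle. Its values in control kidney were 39.8, 39.2, 36.7 and 31.8 CPM, and those in control muscle were 15.7, 14.1, 22.9 and 9.54 CPM, with no overlap between these tissues. The log2 difference with TMM was 2.05 for liver over kidney (SE 0.13), 3.49 for liver over muscle (SE 0.24) and 2.29 for liver over tongue (SE 0.11). Muscle was lowest, by 1.19 log2 units under kidney (SE 0.24) and 0.93 under tongue (SE 0.19), both called. Kidney and tongue are neighbours in the order: kidney was called higher by 0.52 (SE 0.10) with TMM, and without factors the difference was -0.05, with no call.

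miR-146a had the same order of tissues as miR-142, with 121 ± 4.73 CPM (SD, n = 5) in control liver, 29.1 ± 3.84 (SD, n = 9) in tongue, 18.2 ± 1.07 (SD, n = 4) in kidney and 12.4 ± 2.51 (SD, n = 4) in muscle. The liver was higher by 1.72 log2 units than kidney, 2.48 than muscle and 1.34 than tongue, all called. miR-146b, from another gene but with the same seed, had another order. Its values were 141, 77.9, 92.1 and 98.8 CPM in control kidney, and 37.6, 30.4, 33.6, 33.4 and 18.1 CPM in control liver. Control muscle gave 7.66, 19.7, 10.4 and 33.1 CPM, and control tongue ran from 14.1 to 67.6 CPM with a median of 26.2. Every control kidney was above every control library of the other tissues. With TMM, kidney was higher by 2.75 log2 units than liver (SE 0.20), 2.50 than muscle (SE 0.37) and 2.27 than tongue (SE 0.29), all called, and it was called higher without factors too (1.75, 2.54 and 1.71). Liver and muscle did not differ beyond their spread for miR-146b (0.00, SE 0.36). The lower value in liver than in tongue (-0.74, SE 0.31) was called at an adjusted p of 0.0335 in edgeR, but lost with the fetus number as a block (-0.48, adjusted p 0.111).

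miR-155, the activation miRNA, had control means that lay close together by CPM. They were 164 ± 10.4 CPM (SD, n = 5) in liver, 155.2 ± 19.5 (SD, n = 4) in kidney, 132 ± 14.2 (SD, n = 9) in tongue and 129 ± 26.4 (SD, n = 4) in muscle. With TMM, liver was lowest, by 0.93 log2 units under kidney (SE 0.08), 0.45 under muscle (SE 0.11) and 0.41 under tongue (SE 0.08), all called. Without factors these differences turned: liver minus muscle was 0.35 and liver minus tongue 0.32, both called, and kidney minus liver was -0.08 with no call.

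miR-342 was the most abundant member outside liver, with control means of 584 ± 42.4 CPM (SD, n = 4) in kidney, 474 ± 49.6 (SD, n = 4) in muscle and 771 ± 109 (SD, n = 9) in tongue, and 1166 ± 62.4 CPM (SD, n = 5) in liver. By CPM it stood 90th, 110th and 98th in those tables and 85th in the liver. With TMM it was called higher in liver than in muscle (0.48, SE 0.10) and lower in muscle than in tongue (-0.34, SE 0.10). It was also called higher in kidney than in muscle (0.26, SE 0.09), a call that was lost when kidney control 2 or 4 or muscle control 2 or 4 was left out. Kidney minus liver was 0.02 (SE 0.05) with TMM and -0.998 without factors. The other arm, miR-342-5p, was near the bottom of every table, at 6.07 to 8.11 CPM in control means, which rest on counts of 24 to 113 per control library. With TMM it was called higher in kidney than in liver (0.94, SE 0.14) and tongue (0.58, SE 0.13) and lower in liver than in tongue (-0.63, SE 0.12), and without factors these were -0.071, 0.020 and 0.092 with no call.

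Ratios within a library do not depend on the scaling factors, and that of miR-142-5p to miR-342 separated liver from the other tissues. The count of miR-142-5p divided by that of miR-342 was 3.36 to 4.00 in the 13 liver libraries, 0.129 to 0.170 in the 8 kidney libraries, 0.124 to 0.228 in the 8 muscle libraries and 0.1005 to 0.286 in the 16 tongue libraries. The ratio of miR-155 to miR-342 was 0.116 to 0.155 in liver, below the 0.243 to 0.374 of kidney and the 0.210 to 0.425 of muscle, and it overlapped the 0.121 to 0.240 of tongue. The ratio of miR-146a to miR-146b was 2.84 to 6.97 in liver and 0.135 to 0.239 in kidney, while muscle (0.384 to 1.31) and tongue (0.504 to 1.66) lay between them. In the arms of mir-142, the 5p arm outnumbered the 3p arm 7.64 ± 0.30 times (SD, n = 13) in liver, 10.4 ± 1.70 times (SD, n = 8) in kidney, 10.8 ± 1.78 times (SD, n = 8) in muscle and 10.6 ± 1.39 times (SD, n = 16) in tongue. miR-342 outnumbered miR-342-5p in all 45 libraries. These ratios are descriptions, with no test, and those with miR-342 as the divisor were chosen after the data were seen.

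**Figure D2:**
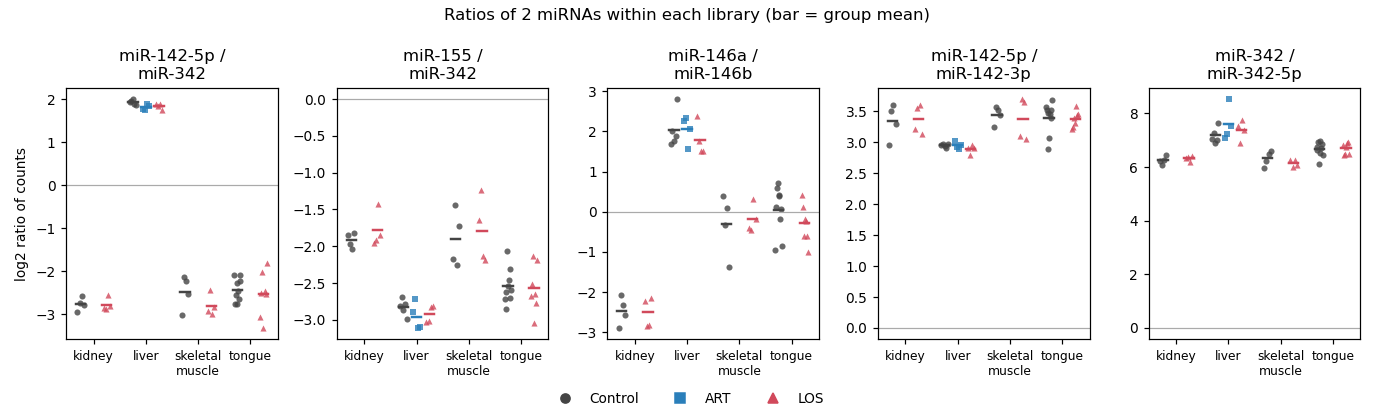
Log2 ratio of the counts of 2 miRNAs within each library (each panel with its own axis), by tissue and group, with bars at group means. Liver lies above 0 and every other library below 0 for miR-142-5p over miR-342, and kidney and liver lie at opposite ends for miR-146a over miR-146b.

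Red cell precursors are also made in the fetal liver, and miR-451 and miR-144 of these cells were far higher in liver too. miR-451 reached 13461 ± 616 CPM (SD, n = 5) in control liver and 189 ± 87.2 (SD, n = 4) in kidney, 120 ± 34.4 (SD, n = 4) in muscle and 233 ± 75.1 (SD, n = 9) in tongue. miR-144, cut from the same primary transcript, was 2598 ± 187 CPM (SD, n = 5) in control liver and had means of 9.61 to 18.5 CPM elsewhere. With TMM the log2 difference of miR-144 was -6.69 for kidney minus liver, 7.27 for liver minus muscle and 6.41 for liver minus tongue. That of miR-451 was -5.16, 6.01 and 5.13 in the same order. These differences were larger in size than those of either arm of mir-142. The summed CPM of miR-451, miR-144 and miR-486 was 55844 to 65469 in control liver, 34072 to 41505 in muscle, 14030 to 25190 in tongue and 2025 to 2575 in kidney, and miR-486, which muscle also makes, carried most of it. By mean CPM in controls miR-486 was 44329 in liver and 37797 in muscle, while with TMM it was called lower in liver than in muscle by edgeR (-0.59, SE 0.09). The part of these cells in the white cell miRNA levels was not tested.

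The second question was whether any member differed with LOS. In kidney no member was called between LOS and control by edgeR (0 of 8, none at an unadjusted p under 0.05), and 0% of all miRNAs were called (33 at an unadjusted p under 0.05; 3 called by DESeq2 and 0 by limma-voom). Of the members, 1 of 8 lay above 0, and their median log2 difference was -0.15, beside 0.01 over all miRNAs. miR-146a had 19.1, 18.6, 18.4 and 16.6 CPM in control kidney and 16.9, 14.9, 16.2 and 13.8 CPM in LOS kidney. The groups overlapped by 1 control library, at 16.6 CPM. Its log2 difference was -0.24 (SE 0.11), with an adjusted p of 0.647 in edgeR. miR-150 differed by -0.15 (SE 0.10) and miR-142-5p by -0.11 (SE 0.11), neither called.

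In skeletal muscle no member was called in edgeR (0 of 8, none at an unadjusted p under 0.05), with 0% of all miRNAs called (58 at an unadjusted p under 0.05; 17 by DESeq2 and 0 by limma-voom). Of the members 4 of 8 lay above 0, with a median log2 difference of 0.02, beside -0.01 over all. The largest difference above 0 was that of miR-342-5p (0.38, SE 0.26), and that of miR-342 was 0.28 (SE 0.18), neither called. miR-155 stood at 121, 162, 99.0 and 133 CPM in control muscle and at 175, 166, 145 and 148 CPM in LOS muscle. Control library 2 lay inside the LOS range, and the other 3 controls lay below it. The log2 difference was 0.32 (SE 0.15), with an adjusted p of 0.375 in edgeR, and it was 0.21 without control 3 and 0.47 without control 2. miR-146b was the most variable member here, at 7.66, 19.7, 10.4 and 33.1 CPM in control and 10.5, 17.9, 7.38 and 12.3 CPM in LOS muscle, a log2 difference of -0.52 with an SE of 0.43. The endothelial miRNA miR-126-3p differed by 0.35 in the same muscle fit (unadjusted p 0.0301 and adjusted p 0.318 in edgeR), and its part in the miR-155 values was not tested.

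In tongue, with a term for sex, no member was called between LOS and control in edgeR (0 of 8, none at an unadjusted p under 0.05), and 0% of all miRNAs were (25 at an unadjusted p under 0.05; 0 by DESeq2 and by limma-voom). The members' log2 differences ran from -0.12 for miR-146a (SE 0.14) to 0.19 for miR-146b (SE 0.33), with a median of 0.03 beside 0.01 over all miRNAs. miR-142-5p was 148 ± 42.2 CPM (SD, n = 7) in LOS and 147 ± 39.1 (SD, n = 9) in control tongue, a log2 difference of -0.01 with an SE of 0.17. Between males and females of the tongue no member was called in edgeR (0 of 8, none at an unadjusted p under 0.05), with 0% of all miRNAs called (62 at an unadjusted p under 0.05; 0 by DESeq2 and by limma-voom). miR-146b had the largest log2 difference between the sexes, 0.52 higher in males with an SE of 0.33.

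In liver, 0 of 9 members were called between LOS and control by edgeR, with 1.24% of all miRNAs called. DESeq2 and limma-voom also called 0 members. Of the 9, 8 were below 0 and miR-146b was above it, with a median log2 difference of -0.12, beside 0.01 over all. The lowest unadjusted p values among the members were those of miR-150 (0.00960) and miR-142-5p (0.0278) in edgeR, and neither was called after adjustment.

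miR-150 stood at 285, 278, 408, 279 and 292 CPM in control livers, at 247, 297, 259 and 311 CPM in ART livers and at 206, 237, 242 and 274 CPM in LOS livers. All 4 LOS livers were below all 5 control livers, a pattern that 1.95% of all miRNAs in this table had in this direction, and the ART livers overlapped both groups. The log2 difference of LOS from control was -0.38 (SE 0.12), with an unadjusted p of 0.00960 and an adjusted p of 0.161 in edgeR. Without control 3, the highest library, the difference was -0.26 with an adjusted p of 0.292. The ART livers differed from control by -0.13 (SE 0.12) and the LOS livers from ART by -0.24 (SE 0.13), neither called. These 3 comparisons share their groups, so their values are not independent. The red cell miRNA miR-451 differed between LOS and control liver by 0.02 (SE 0.05).

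miR-142-5p stood at 4290, 4118, 4089 and 4393 CPM in ART livers and at 4288, 4197, 4173 and 3852 CPM in LOS livers, beside the control values above. Control 4, at 4134 CPM, lay inside the LOS range, and the other 4 controls lay above it. The log2 difference of LOS from control was -0.12 (SE 0.05), with an unadjusted p of 0.0278 and an adjusted p of 0.342 in edgeR. The ART livers differed from control by -0.05 (SE 0.05). miR-142-3p, from the same precursor, differed by -0.05 in LOS (SE 0.05) and by -0.05 in ART (SE 0.05).

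Between ART and control livers no member was called in edgeR (0 of 9, none at an unadjusted p under 0.05), with 0% of all miRNAs called (46 at an unadjusted p under 0.05; 6 by DESeq2 and 0 by limma-voom). Of the members 8 of 9 were below 0, against the same control livers as LOS, so this is not a separate observation. Both arms of mir-142 and of mir-342 are among the 9. Here miR-342 was the one above 0, at 0.07 (SE 0.05). The median was -0.11, beside 0.00 over all. Between LOS and ART livers 0 of 9 members were called in edgeR, none at an unadjusted p under 0.05, with 2.66% of all miRNAs called. DESeq2 and limma-voom called 0 members in either comparison. miR-223 differed by -0.10 in LOS from control (SE 0.11), by -0.11 in ART from control (SE 0.11) and by 0.01 in LOS from ART (SE 0.11).

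**Figure D3:**
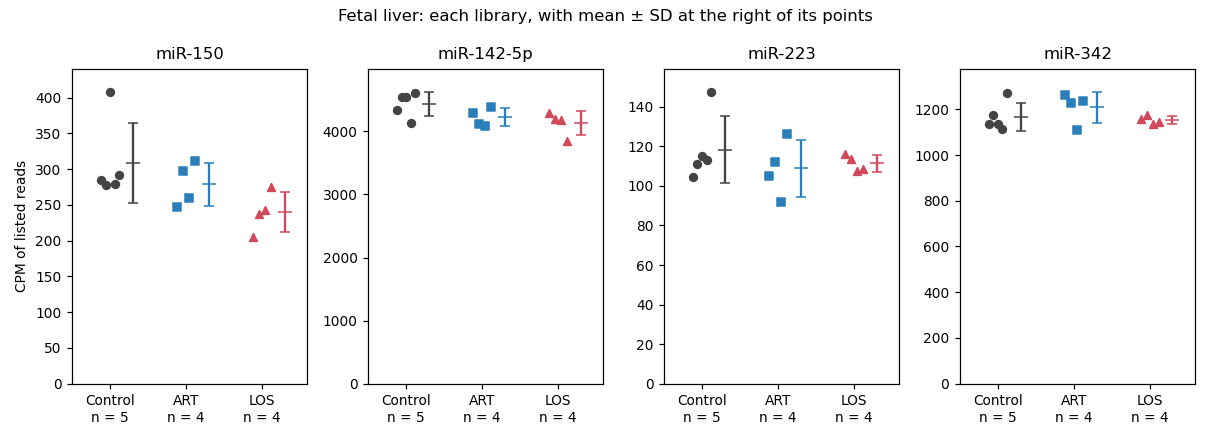
CPM of listed reads (linear axes from 0) of miR-150, miR-142-5p, miR-223 and miR-342 in each liver library, with the mean ± SD of each group at its right. For miR-150 the 4 LOS livers, at 206 to 274 CPM, lie below the 5 control livers, at 278 to 408 CPM, and for the other miRNAs shown the 3 groups overlap.

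**Figure D4:**
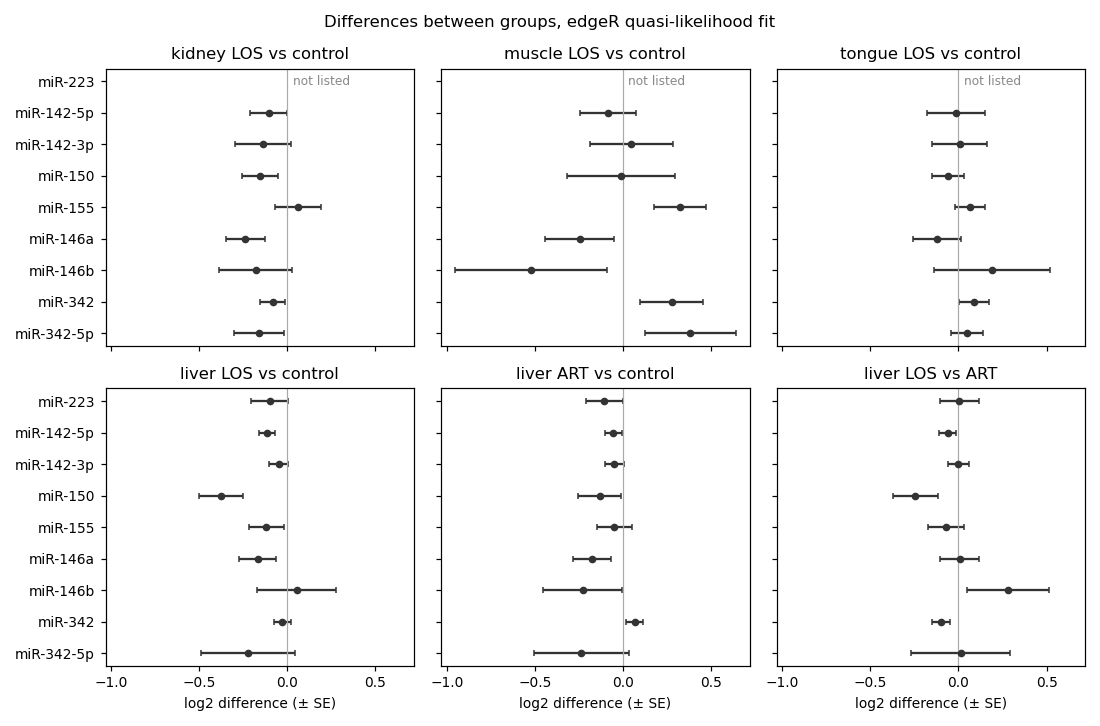
Log2 difference between groups for each member (point) with its standard error (bar), in 6 comparisons, from the edgeR fit of each tissue. miR-150 in liver, at -0.38 for LOS against control, and miR-146b in muscle, at -0.52 with a wide error, are farthest below 0. miR-342-5p in muscle, at 0.38 (SE 0.26), is farthest above 0, and no value passed the adjusted threshold.

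Whether the LOS difference itself differs between tissues was tested with a tissue by LOS interaction in edgeR, over the 32 libraries of control 1 to 4 and LOS 1 to 4. The fetus numbers recur across tissues, but this fit had no term for the fetus and took the libraries as independent. No member was called (0 of 8, none at an unadjusted p under 0.05; 0 by DESeq2 and by limma-voom), and 1.07% of the 374 miRNAs shared by the 4 tables were. The lowest adjusted p values among the members were 0.457 for miR-155 and 0.496 for miR-342-5p. With the fetus number as a block, also no member was called.

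The last question was which members vary together from library to library within a tissue. Over 15 relations, with adjustment over all of them, miR-142-5p with miR-146b in tongue passed in a permutation test (two-sided): Pearson's r was 0.77 over 16 libraries (p 6.2e-04, adjusted p 0.00930) and Spearman's rho 0.73 (p 0.00198, adjusted p 0.0297). Within the groups, r was 0.63 over 9 control libraries and 0.94 over 7 LOS libraries. The permutation test had no term for sex or group. In tongue, males were higher by 0.24 log2 units for miR-142-5p (SE 0.17) and by 0.52 for miR-146b (SE 0.33), neither called. The part of sex in this relation was not tested. Without the 2 libraries farthest from the median of miR-142-5p, r was 0.68 over 14 libraries. The permutation test then gave p 0.0078 and adjusted p 0.117, so the call was not kept. This relation was added after the data were seen, and it did not pass in the other tissues, where r was 0.07 in kidney, -0.40 in liver and 0.13 in muscle. In tongue, miR-142-5p with miR-150 gave r = 0.50 over 16 libraries (rho 0.47, permutation p of r 0.0498, adjusted 0.249). In liver, miR-223 with miR-142-5p gave r = 0.55 over 13 libraries (rho 0.48, permutation p of r 0.0452, adjusted 0.249), and 0.27 without the 2 farthest libraries. miR-142-5p with the red cell miRNA miR-451 gave r of 0.07, 0.28, 0.23 and 0.23 in kidney, liver, muscle and tongue, none of which passed.

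**Figure D5:**
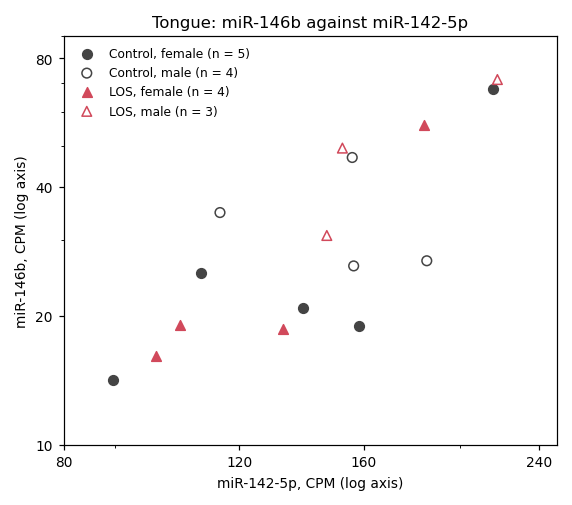
CPM of miR-146b against CPM of miR-142-5p (both log axes) in the 16 tongue libraries, with circles for control and triangles for LOS, filled for females and open for males. The libraries with the most miR-142-5p, at 216 and 218 CPM, also have the most miR-146b, at 67.6 and 71.3 CPM.

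Likeness was also ranked over all 45 libraries, as Pearson's r of log2 CPM after each tissue and group was centred on its mean, among the 373 other miRNAs that all 4 tables list. These are descriptions, and the miRNAs of a library share its total and its scaling. Nearest to miR-142-5p were miR-148a-5p (r = 0.80), miR-148a (0.78) and its own other arm miR-142-3p (0.73). miR-146a was 10th (0.59), miR-146b 21st (0.53) and miR-150 82nd (0.36). Nearest to miR-150 were miR-26b-3p (0.53), miR-142-3p (0.50) and miR-2299-5p (0.44), with miR-342 4th (0.43). Nearest to miR-146b were miR-temp63-3p (0.75), miR-146a (0.66) and miR-30e-5p (0.65), so the pair that share a seed also ranked near each other while their levels between tissues differed. For miR-223, over the 13 liver libraries and 562 other miRNAs, the nearest were miR-342 (0.81), miR-191b (0.76) and miR-2336 (0.76), and miR-146b was next to last (-0.78).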

How the data were processed

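The authors deposited 4 tables, 1 per tissue, of whole-number read counts per miRNA and library, not normalized. Per the labels, total RNA from frozen tissue was made into TruSeq small RNA libraries with size selection on a gel. Per the submitters' processing notes, Bowtie and build UMD3.1 were used, and cutadapt 1.18 was named for tongue alone. How reads were assigned to miRNAs, and by what rule a miRNA entered a table, is not given in the sources used here. CPM and TMM factors were computed from listed totals in R 4.3.3 with edgeR 4.0.16 (quasi-likelihood test, filterByExpr, Benjamini-Hochberg adjustment over all miRNAs of a table or shared by the tables, threshold 0.05). DESeq2 1.42.0 and limma 3.58.1 (voom) were alternatives. The 3 liver groups shared 1 fit. Tests were checked on simulated data with planted 2-fold and 4-fold changes, as many up as down, so smaller or one-sided changes were not covered. Relations used log2 CPM with a prior count of 2, with all pairings for 8 libraries and 100000 permutations above that.

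All listed members entered the counts of each comparison, but values are printed for only a part of them. The 3 nearest miRNAs are given for miR-223, miR-142-5p and miR-150 (miR-146b was added). The members and lists were chosen with earlier results of these data known. Of the planned relations, those with miR-223 outside liver had no values, and relations of miR-142-5p with miR-451 and miR-146b were added. Fetus numbers recur across tissues and were taken as the same fetus. In control fetuses 15 of 25 pairings of tissues by number correlated above 0.1 in their deviations (range -0.001 to 0.433). LOS fetuses were not compared in this way, nor were unlike numbers across tissues, so these values cannot show that the fetuses are the same. Between the control, ART and LOS groups of a tissue the number is only a number (6 of 27 pairings above 0.1, range -0.370 to 0.272). The smallest chi-square per degree of freedom between libraries of a group was 23.9.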

Additional observations from a re-analysis of the deposited data

Results flagged for a closer look

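Of 75 sets of 4 to 10 libraries (1 member in 1 tissue and group), 3 had a library set apart from the rest by Dixon's criterion, and chance alone marks about 5% of sets. All 3 were the highest of the 5 control livers. miR-150 was 408 CPM in control 3, with the next library at 292 CPM. miR-155 was 182 CPM in control 2, with the next at 162 CPM. miR-223 was 148 CPM in control 5, with the next at 115 CPM. The 3 libraries are different fetuses.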

How the results depend on the processing

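In 189 alternative settings of the 7 group comparisons and the interaction, no member was called, and the smallest adjusted p was 0.0880 (miR-150 in liver, LOS against control, DESeq2). Over leaving out each library, miR-150 there ran from -0.46 to -0.26. In tongue, miR-146a was 0.034 in males alone, and in muscle miR-142-3p was -0.19 without LOS 4 (leave-one-out range -0.19 to 0.20). There were 76 differences that crossed 0 by less than 1 SE with no call, counted as unchanged. Over all miRNAs, calls between LOS and control liver numbered 4 with the replicate block and 20 with DESeq2 against 7, and between LOS and ART liver 27 with DESeq2 and 6 with those groups alone against 15.

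Without scaling factors, kidney minus liver turned to -0.082 for miR-155, -0.998 for miR-342 and -0.071 for miR-342-5p, and kidney minus tongue to -0.052 for miR-150 and -0.40 for miR-342. Liver minus muscle turned to 0.35 for miR-155, 0.79 for miR-146b and 0.41 for miR-342-5p. Liver minus tongue turned to 0.32 for miR-155, 0.60 for miR-342 and 0.092 for miR-342-5p, and muscle minus tongue to -0.036 for miR-155 and -0.32 for miR-342-5p. With RLE factors and with DESeq2, miR-142-5p was 0.12 for kidney minus muscle and miR-342 was 0.066 for liver minus tongue. The cause was not tested.

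Without kidney control 1, kidney minus muscle was 0.13 for miR-142-5p (leave-one-out range -0.13 to 0.13). Without tongue control 4, kidney minus tongue was -0.0046 for miR-342 (leave-one-out range -0.0046 to 0.20), while miR-142-5p (-0.39) and miR-146a (-0.27) were then called. Without muscle control 4, liver minus muscle was 0.49 for miR-146b (leave-one-out range -0.24 to 0.49). Without muscle control 1, muscle minus tongue was -0.23 for miR-342-5p (leave-one-out range -0.23 to 0.14). The call of miR-342 between kidney and muscle was lost without kidney control 2 or 4 and without muscle control 2 or 4.

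With the replicate block (the fetus number), muscle and tongue gave 3 called members against 5, as with control fetuses 1 to 4 alone and without muscle control 1 or 4 (leave-one-out range 3 to 6): miR-142-3p (adjusted p 0.112) and miR-155 (0.115) were lost. The block also ended the call of miR-146b between liver and tongue (adjusted p 0.111), as did RLE factors, DESeq2, limma-voom, no factors, control fetuses 1 to 4 alone and 6 of the libraries left out in turn, and it changed no other call of a member. Without the 2 farthest libraries, r of miR-142-5p with miR-451 was -0.17 in kidney and -0.37 in muscle, and with miR-146b in tongue 0.68.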

Other observations

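Other miRNAs of blood-forming cells and vessels differed between tissues in several ways. The summed CPM of miR-181a, miR-181b, miR-181c, miR-181d, miR-221 and miR-222, which are made in blood progenitors and in many other cells, was 21086 ± 2719 (SD, n = 5) in control liver, below kidney with 51108 ± 3034 (SD, n = 4), muscle with 50014 ± 2512 (SD, n = 4) and tongue with 52173 ± 4225 (SD, n = 9). miR-181a carried most of this sum, with 18081 CPM in control liver. With TMM, edgeR called 5 of these 6 lower in liver than in kidney and 0 higher, where 87.8% of all miRNAs were called. It called 4 lower and 1 higher in liver than in muscle (85.5% of all called). In liver against tongue it called 5 lower and 1 higher (87.2% of all called). The number of calls therefore does not set this list apart. miR-222 was 371 ± 25.4 CPM (SD, n = 5) in control liver, above kidney with 204 ± 19.7 (SD, n = 4), muscle with 56.2 ± 14.9 (SD, n = 4) and tongue with 58.4 ± 13.1 (SD, n = 9), and was named after its values were seen. With TMM it was called higher in liver than in muscle (1.92, SE 0.14) and tongue (1.95, SE 0.13), while kidney minus liver was 0.15 (SE 0.07) with no call, the opposite direction to CPM. For the endothelial miRNAs miR-126-3p, miR-126-5p and miR-139 the summed CPM was 14211 ± 834 (SD, n = 5) in control liver, 11677 ± 287 (SD, n = 4) in kidney, 9373 ± 606 (SD, n = 4) in muscle and 11012 ± 960 (SD, n = 9) in tongue. With TMM, edgeR called 2 of these 3 higher and 1 lower in kidney than in liver (87.8% of all called). It called 1 higher and 1 lower in liver than in muscle (85.5% of all called). Between liver and tongue it called 1 higher and 2 lower in liver (87.2% of all called). miR-126-3p was 0.56 for kidney minus liver (SE 0.07) and -0.62 for liver minus tongue (SE 0.12), so the direction depended on the scale. No miRNA of these lists, nor of the red cell list, was called by edgeR between LOS, ART and control in any tissue.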
